A study of Mus musculus with 8 samples.

Results

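The genes of the MHC class II pathway and its master regulator Ciita were followed across cell classes, organs and donor groups in single-cell RNA data from blood and heart. The set was chosen by gene symbol and holds 10 of the 32285 gene identifiers measured: H2-Aa, H2-Ab1, H2-Eb1, Cd74, Ciita, H2-DMa, H2-DMb1, H2-DMb2, H2-Oa and H2-Ob. The cells came from 4 recipient mice of the Mx1Cre:c-Myb fl/fl genotype, in which the host's blood-forming cells can be depleted because the interferon-inducible Mx1 promoter drives Cre and Cre removes the floxed c-Myb. In all, 2 mice received marrow from donors that had had a stroke and 2 received marrow from control donors. CD45+CD11b+ cells of heart and blood were sorted, marked with a different hashtag antibody for each organ and pooled into 1 library per mouse. Both groups share the genotype and the transplantation, and the labels name no difference between them but the donor. The labels used here give no age, no time after transplantation and no agent that induced Cre, and host cells that live long in the heart may still be present.

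Class II molecules carry peptides of engulfed proteins to the surface of antigen-presenting cells, where CD4+ T cells read them. H2-Aa and H2-Ab1 encode the alpha and beta chains of the I-A molecule, H2-Eb1 the beta chain of I-E, and Cd74 the invariant chain that blocks the peptide groove until the endosome is reached. The DM molecule, built from H2-DMa and a beta chain from H2-DMb1 or H2-DMb2, then exchanges the last fragment of Cd74 for a peptide, and the DO molecule of H2-Oa and H2-Ob restrains DM. Ciita binds no DNA by itself and is recruited to X and Y box sequences in the promoters of these genes by the RFX, CREB and NF-Y factors.

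In the GENCODE vM21 annotation of GRCm38 all 10 genes are protein coding. Ciita lies on chromosome 16 (10480059 to 10528418, plus strand), and Cd74 also lies outside the MHC. The other 8 lie within the MHC on chromosome 17, in the order H2-Oa (34092340 to 34095234), H2-DMa (34119541 to 34139101), H2-DMb2 (34143307 to 34151555), H2-DMb1 (34153072 to 34160230), H2-Ob (34238903 to 34254414), H2-Ab1 (34257689 to 34269419), H2-Aa (34282744 to 34287823) and H2-Eb1 (34305867 to 34316674). H2-Aa is on the minus strand and the other 7 on the plus strand.

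Promoter sequences show what the members share beyond their function. They are RefSeq promoters on GRCm38.p6, each printed 5′ to 3′ on the strand of its gene from 140 to 21 bases before the start site. Capitals mark the Y box letters TGATTGG, the end of the X box AACNNATG, or, in H2-Aa, the X2 box TGACGTCA. The 3 motifs were chosen after these promoters had been read, both strands were searched, and none of the marked stretches overlap. The windows are chr17:34287844-34287963 for H2-Aa, chr17:34305727-34305846 for H2-Eb1, chr17:34153051-34153170 for H2-DMb1, chr17:34145109-34145228 for H2-DMb2, chr17:34092239-34092358 for H2-Oa and chr17:34238765-34238884 for H2-Ob.
H2-Aa: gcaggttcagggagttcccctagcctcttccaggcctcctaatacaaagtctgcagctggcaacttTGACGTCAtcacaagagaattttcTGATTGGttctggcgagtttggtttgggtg
H2-Eb1: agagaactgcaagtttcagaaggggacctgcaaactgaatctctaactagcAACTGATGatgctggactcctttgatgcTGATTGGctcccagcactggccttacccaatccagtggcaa
H2-DMb1: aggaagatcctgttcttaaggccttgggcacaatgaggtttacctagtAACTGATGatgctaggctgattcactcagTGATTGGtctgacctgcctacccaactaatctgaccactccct
H2-DMb2: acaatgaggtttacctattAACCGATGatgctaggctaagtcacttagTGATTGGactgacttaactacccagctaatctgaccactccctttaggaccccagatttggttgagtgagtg
H2-Oa: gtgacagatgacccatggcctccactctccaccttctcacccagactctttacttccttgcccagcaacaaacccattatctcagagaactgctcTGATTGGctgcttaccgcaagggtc
H2-Ob: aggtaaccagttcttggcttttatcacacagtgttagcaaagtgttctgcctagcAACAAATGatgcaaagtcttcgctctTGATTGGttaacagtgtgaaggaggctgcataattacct
The promoters printed are those of the members that held any of the 3 motifs, so the shares below are not a test. The Y box stood in all 6 of these promoters, while 7.82% of the 32851 RefSeq promoters held it on either strand. All shares over the 32851 promoters come from full promoter sequences, which are longer than the printed windows. AACNNATG stood in H2-Eb1, H2-DMb1, H2-DMb2 and H2-Ob, against 8.86% of all promoters, and TGACGTCA in H2-Aa, against 1.79%. From the end of AACNNATG to the start of the Y box there were 20 bases in H2-Eb1, 21 in both H2-DMb1 and H2-DMb2, and 18 in H2-Ob. In H2-Aa 16 bases separated the X2 box from the Y box. Only 14 of the 32851 promoters, or 0.0426%, held AACNNATG followed by the Y box within 40 bases on the gene's strand, and these included H2-Eb2 beside the 4 members. Neither of the 2 promoter entries of H2-DMa held any of the 3 letter strings in this window. H2-Ab1, Cd74 and Ciita have no entry in the table used.

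The libraries held 2020 to 3303 barcodes and 10059365 to 16482961 gene UMIs, with a median of 3996.0 to 4681.5 UMIs per barcode, and 9681 barcodes (4938 from heart and 4743 from blood) were kept. Classes were rebuilt here from marker genes that include no class II gene, on clusters made without the 10 members, and they may differ from the authors' own. Although CD11b was gated on, B cell-like and NK cell-like clusters were present in both organs. Stroke replicate 2 stood apart in blood: 984 of its blood barcodes, 75.8%, were B cell-like, against 6.24% to 10.8% in the other mice. Control replicate 1 had 1 UMI of Xist and 1443 UMIs of Y-linked genes, while the other 3 mice had 5529 to 10897 and 2 to 3, so sex was not balanced. Libraries shared 14 barcode sequences. Nothing in the labels says that the mice were handled in separate batches. The p-values between donors rest on 2 mice per group, and those between organs on 4 mice measured in both organs.

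Levels are given as CPM, the usual scaling of a gene's count to the total of all genes, computed on the UMIs summed over the barcodes of a class in a mouse, always in the order control replicate 1, control replicate 2, stroke replicate 1, stroke replicate 2. Each UMI is a 3′ tag that stands for a transcript whatever its length. The 4 most abundant members, H2-Aa, H2-Ab1, H2-Eb1 and Cd74, were also added up, and their total is called the core sum.

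Dendritic cells of the heart carried the highest core sums, at 38610, 38190, 39180 and 33960 CPM (37480 ± 2386, SD, n = 4). The 4 mice lay close together, and no other class compared had a higher mean in either organ. Blood dendritic cells followed at 21800, 27380, 16470 and 36870 CPM (25630 ± 8717). Their spread was wide and reached into the heart range through stroke replicate 2, which had only 26 such barcodes.

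Heart macrophages, the largest class of the organ, came next with core sums of 19210, 19300, 15080 and 17850 CPM (17860 ± 1966). B cells were lower and similar in both organs, at 14400, 16630, 14460 and 14540 CPM in heart (15010 ± 1083) and 14210, 14750, 14200 and 12760 CPM in blood (13980 ± 850). The ranges of macrophages and heart B cells overlapped, so their order is not larger than the spread between mice.

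Classical monocytes, the circulating precursors of many tissue macrophages, differed between organs. Their core sum was 11290, 7966, 7741 and 3915 CPM in heart (7727 ± 3014) and 1858, 3149, 1372 and 2658 CPM in blood (2259 ± 796). Every heart value lay above every blood value. Nonclassical monocytes, which patrol vessel walls, were low in both organs, at 1275, 1669, 830 and 749 CPM in heart (1131 ± 427) and 1867, 2164, 1082 and 2138 CPM in blood (1813 ± 505). These ranges overlapped.

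Neutrophils and NK cells held few class II transcripts. Heart neutrophils had core sums of 518, 3453, 427 and 1209 CPM, and control replicate 2 stood far above the others. Blood neutrophils had 91.3, 146, 107 and 226 CPM. In NK cells the core sum was 56.0, 85.8, 540 and 114 CPM in heart and 24.5, 55.6, 25.4 and 302 CPM in blood, with the high values in stroke replicate 1 and stroke replicate 2. In the heart NK sum of stroke replicate 1 the 10 B cell markers added up to 618 CPM, with 1 of them at 0, against 57.2 to 148 CPM in the other 3 mice, with 6 or 7 at 0; in the blood NK sum of stroke replicate 2 they added up to 649.9 CPM, with 2 at 0, against 58.2 to 87.3 CPM in the other 3 mice. The part of B cell RNA in both values was not tested.

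Shares of barcodes separated the same classes from the low ones. After every barcode was thinned to 1000 UMIs, 70.0% to 95.5% of heart dendritic cells, 84.8% to 90.2% of heart B cells and 49.8% to 60% of heart macrophages held a UMI of H2-Aa. Unthinned, these shares were 80.6% to 100%, 98.0% to 99.4% and 59.6% to 69.7%. In heart classical monocytes 21.4% to 41.7% held one after thinning (31.8% to 54.1% unthinned), and in blood classical monocytes 8.38% to 15.8% did (16.2% to 27.0% unthinned). Blood neutrophils, a class with little class II expression, gave 1.21% to 2.45%, and heart NK cells 0% to 2.00%. Heart neutrophils gave 3.57% to 7.29% and heart nonclassical monocytes 2.02% to 5.86%, and these ranges overlapped. Unthinned, median depths were 1811 to 1959 UMIs in blood neutrophils and 5734 to 7532 in heart dendritic cells.

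**Figure D1:**
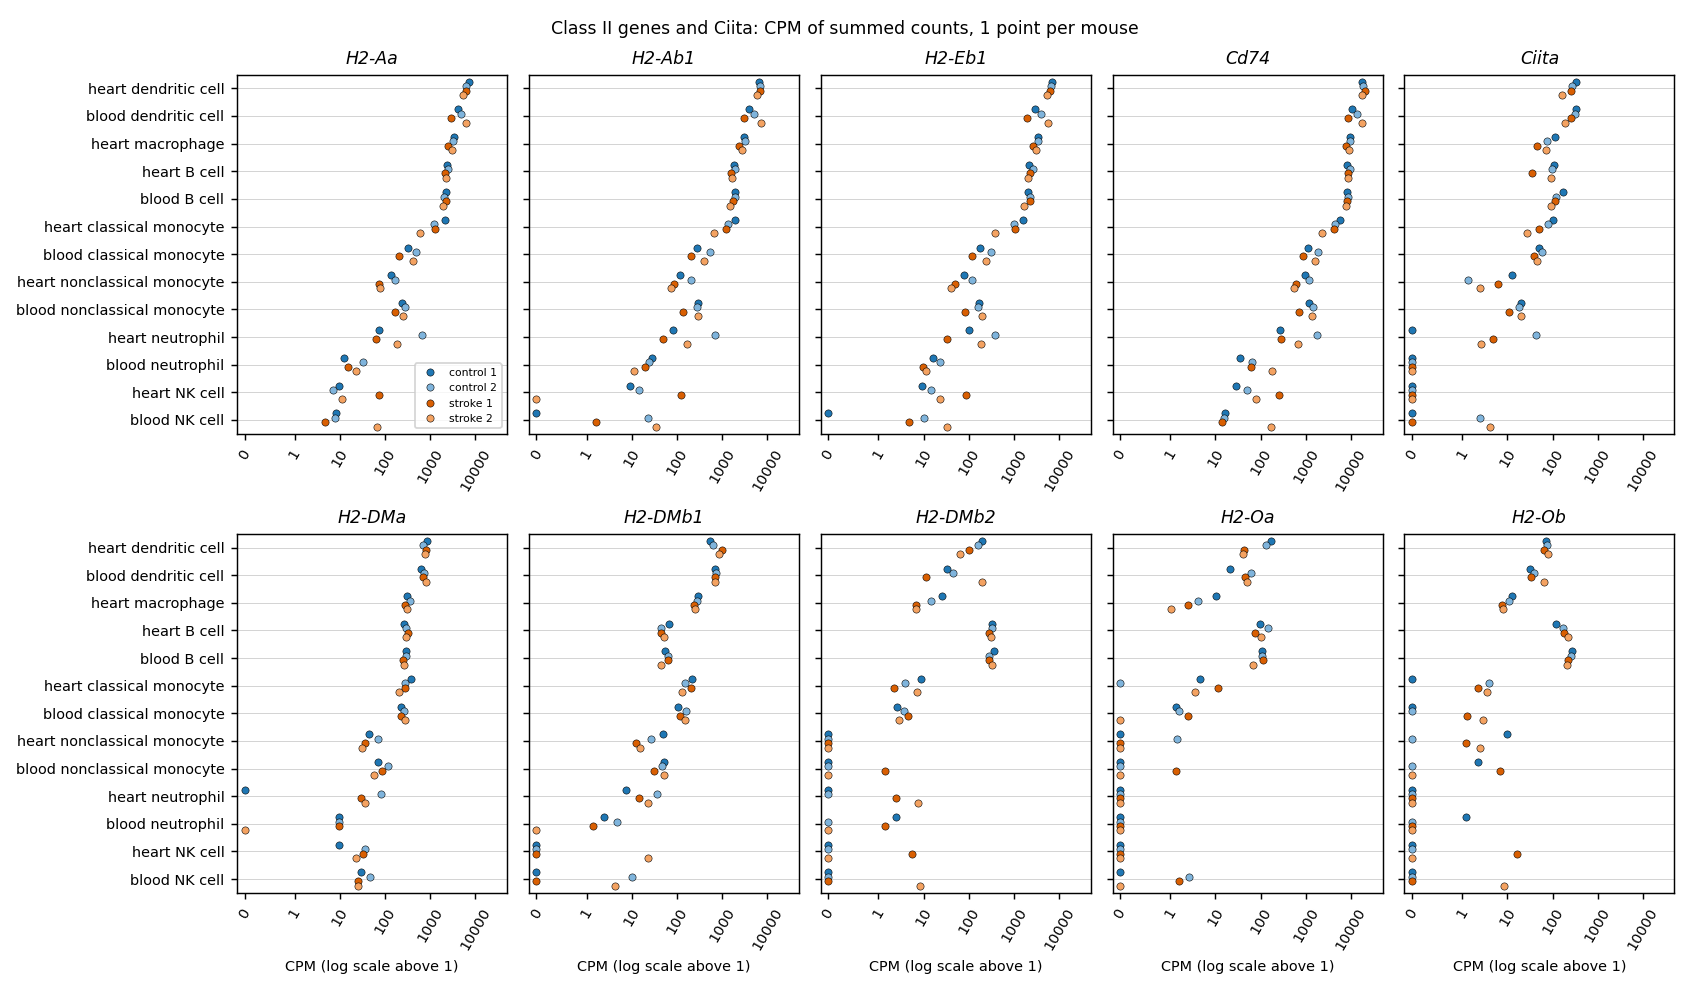
CPM of each of the 10 genes (x axis, log scale above 1) in 13 combinations of organ and class (y axis), with 1 point per mouse, blue for control and orange for stroke marrow. The core genes are high in dendritic cells, macrophages and B cells and low in NK cells and blood neutrophils, whereas H2-DMb2, H2-Oa and H2-Ob are highest in B cells and dendritic cells and near 0 in monocytes.

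Ciita, the transactivator, was also highest in dendritic cells. It measured 334, 272, 260 and 159 CPM in heart dendritic cells and 333, 315, 250 and 194 CPM in blood dendritic cells. In both organs the 2 stroke mice were the lowest of the 4, and the organs overlapped. Macrophages, B cells and heart classical monocytes overlapped with one another. Ciita stood at 116, 75.7, 46.3 and 70.8 CPM in heart macrophages, at 109, 98.7, 34.5 and 91.7 CPM in heart B cells and at 172, 121, 116 and 91.8 CPM in blood B cells. In classical monocytes it was 102, 79.0, 49.5 and 27.9 CPM in heart and 50.7, 58.3, 39.6 and 46.2 CPM in blood. Blood neutrophils held 0 UMIs of Ciita in all 4 mice, which allows up to 3.65, 7.04, 4.18 and 33.8 CPM at a limit of 3 counts per library. Heart NK cells held none either, with limits of 28.0, 21.4, 16.5 and 34.2 CPM. Those limits, and the intervals on shares given here, cover counting error only.

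The 5 genes outside the set whose log2 CPM over the 52 sums of class, organ and mouse was most like the mean of the core genes were Pkib (Pearson's r = 0.893), Snx9 (0.880), Fgd2 (0.874), Celf4 (0.873) and Bmyc (0.868), among 8224 genes with a mean of at least 10 CPM. Ciita reached 0.937, H2-DMb1 0.884 and H2-DMa 0.841 in the same ranking. These are descriptions only, since the sums share mice, libraries and clusters.

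DM and DO divided the antigen-presenting classes in another way than the core genes. H2-DMa, the shared alpha chain of DM, was present in all of them: it measured 844, 687, 817 and 756 CPM in heart dendritic cells, 302, 358, 279 and 308 CPM in heart macrophages, and 263, 291, 316 and 290 CPM in heart B cells. The beta chain came from different genes. H2-DMb1 measured 527, 624, 974 and 840 CPM in heart dendritic cells and 287, 271, 236 and 246 CPM in heart macrophages, but only 67.2, 44.8, 45.1 and 52.2 CPM in heart B cells. H2-DMb2 was the opposite, at 318, 323, 287 and 306 CPM in heart B cells and 26.0, 14.3, 6.72 and 6.81 CPM in heart macrophages.

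As a share of the UMIs of both beta chain genes, H2-DMb2 took 82.6%, 87.8%, 86.4% and 85.4% in heart B cells and 86.7%, 81.7%, 81.6% and 87.7% in blood B cells. In heart macrophages it took 8.30%, 5.01%, 2.76% and 2.69%, and in blood classical monocytes 1.89% to 3.86%. The lowest B cell share was thus above the highest share in dendritic cells, macrophages or classical monocytes, which was 27.6%. The 2 genes share sequence: of the 50-base words in the last 500 bases of the longest H2-DMb1 transcript, 20.4% (92 of 451) also occur in H2-DMb2, and reads from that stretch cannot be placed in 1 gene. Of the 451 words in the last 500 bases of H2-DMb2, 0 occur in H2-DMb1.

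Some of the H2-DMb2 in macrophages sat in barcodes that also held B cell transcripts. Without barcodes holding a UMI of Cd79a, Cd79b or Ms4a1, the macrophage share of H2-DMb2 was 3.46%, 1.78%, 0.604% and 0.684%, and only 4, 3, 1 and 0 UMIs of H2-Oa remained. The 10 B cell markers summed to 943, 552, 460 and 524 CPM in the macrophages, none of them at 0, with control replicate 1 the highest.

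In heart dendritic cells the share of H2-DMb2 differed between the mice. It was 27.6% and 20.3% in the control mice (exact Clopper-Pearson 95% intervals 23.1% to 32.3% and 16.2% to 24.8%) and 9.55% and 7.14% in the stroke mice (5.85% to 14.5% and 3.86% to 11.9%). The donor groups did not overlap, and neither did their counting intervals. B cell transcripts moved with it: the B cell markers summed to 458 and 609 CPM in the control sums, with none at 0, and to 70.4 and 129 CPM in the stroke sums, with 9 and 5 of the 10 at 0. Without the barcodes that held a UMI of Cd79a, Cd79b or Ms4a1 the shares were 26.6%, 21.0%, 9.55% and 5.23%, from 60 of 67, 58 of 68, 23 of 23 and 28 of 31 barcodes. With 2 mice against 2, an exact permutation test cannot give a two-sided p below 0.333. Blood dendritic cells did not show this split, with shares of 4.59%, 5.77%, 1.59% and 21.9%.

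**Figure D2:**
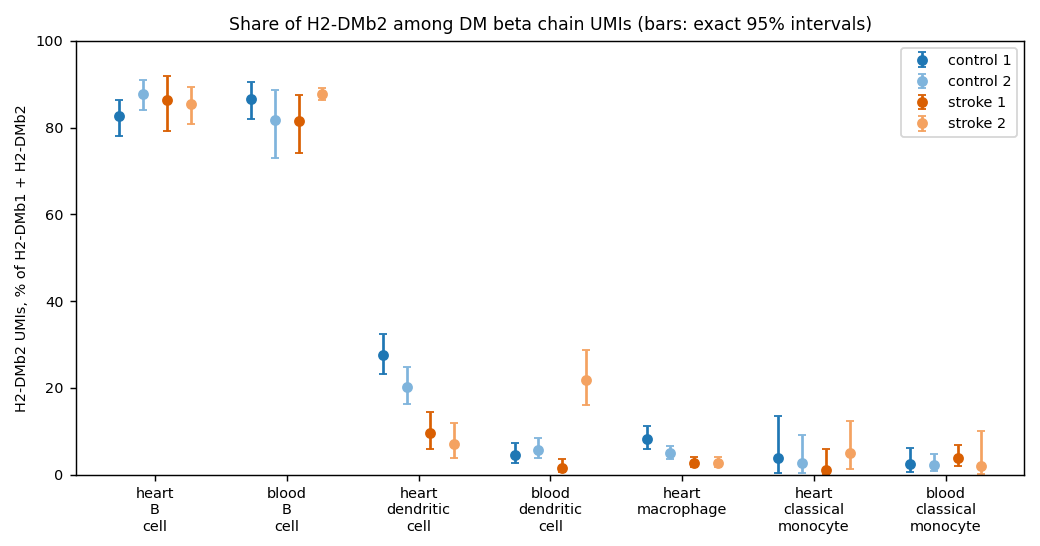
Share of H2-DMb2 among the UMIs of H2-DMb1 and H2-DMb2 (y axis, percent) in 7 combinations of class and organ (x axis), with 1 point per mouse and exact 95% intervals. B cells lie between 81.6% and 87.8%, macrophages between 2.69% and 8.30%, and heart dendritic cells fall from 27.6% and 20.3% in the control mice to 9.55% and 7.14% in the stroke mice.

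The DO chains, which restrain DM, were largely B cell and dendritic cell transcripts. H2-Ob measured 274, 258, 222 and 214 CPM in blood B cells, 120, 169, 178 and 217 CPM in heart B cells, and 72.6, 76.1, 64.9 and 79.6 CPM in heart dendritic cells. In heart macrophages it was 12.99, 11.1, 7.71 and 7.83 CPM. H2-Oa measured 98.6, 147, 74.3 and 101 CPM in heart B cells and 168, 128, 43.3 and 39.8 CPM in heart dendritic cells. The heart dendritic cells of the 2 control mice lay within or above the range of all B cell sums (68.7 to 147 CPM), and those of the stroke mice lay below it.

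Macrophages of the heart were not uniform. Of 2000 UMIs drawn per barcode, the median macrophage gave 26, 27, 11 and 24 to the core genes, while the 10th percentile was 0 and the 90th was 99.2, 106, 95.8 and 103. Between 16.8% and 24.1% of macrophages had none, and 27.3% to 36.0% had 50 or more. The median was lowest in stroke replicate 1, and the 90th percentile was similar in all 4 mice. Macrophages with a UMI of Ciita had a median of 73, 64, 66 and 66.5 core UMIs, against 18, 20, 7.5 and 18 in those without.

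Lyve1, Timd4 and Folr2 are known marks of macrophages that live in the heart and renew themselves there. The core sum was lower where they were found: 8777, 13130, 9249 and 11050 CPM (10550 ± 1977, SD, n = 4) in the 1215 macrophages with a UMI of any of the 3 genes at 2000 UMIs, and 28540, 31270, 25830 and 31020 CPM (29170 ± 2539) in the 741 without. The ranges of the 2 subsets over the mice did not overlap. Per barcode, the median of core UMIs was 1, 8, 3 and 8 with the 3 genes and 62, 61, 48 and 60 without them. Ciita showed the same direction, at 36.1, 46.1, 25.4 and 56.4 CPM with the 3 genes and 183, 125, 85.6 and 99.7 CPM without them. H2-DMb1 measured 136, 194, 153 and 140 CPM with the 3 genes and 423, 423, 391 and 451 CPM without them. Ccr2, the receptor that marks macrophages of recent monocyte origin, was also higher without the 3 genes, at 382, 172, 120 and 168 CPM against 67.4, 42.2, 37.8 and 51.6 CPM. The core sums of the subset without the 3 genes lay within the range of blood dendritic cells.

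**Figure D3:**
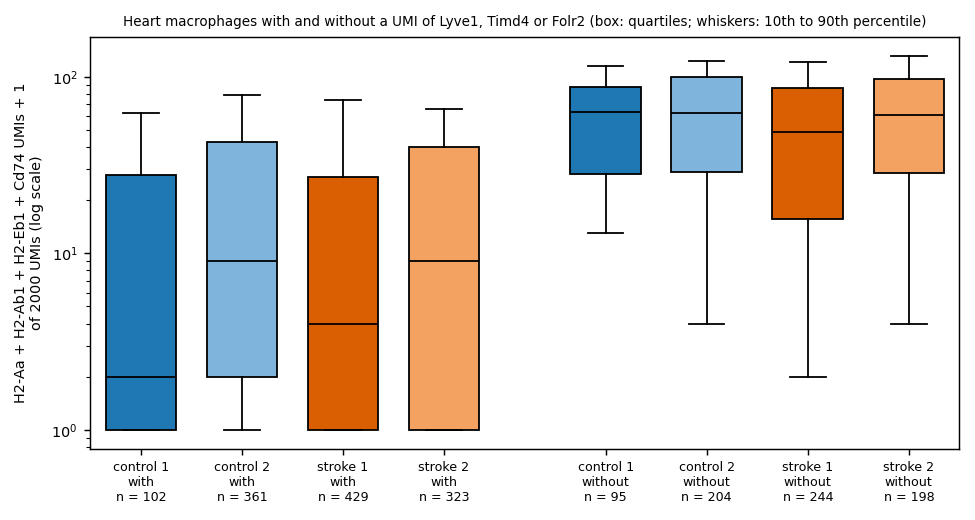
Core UMIs plus 1 of 2000 UMIs per heart macrophage barcode (y axis, log scale) for barcodes with a UMI of Lyve1, Timd4 or Folr2 and for those without, per mouse, with the quartiles as boxes and the 10th to 90th percentiles as whiskers. The medians lie between 1 and 8 UMIs with the 3 genes and between 48 and 62 without them, in control and stroke mice alike.

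The 4 macrophage clusters showed the same contrast, although clustering had not used the class II genes. They do not stand apart from the split above, because Lyve1 and Folr2 were among the top genes of cluster 4 but not of cluster 3. Cluster 3 had core sums of 28790, 28840, 22740 and 27680 CPM and cluster 4 had 7059, 10210, 6334 and 8824 CPM. Every mouse showed this order. The smaller clusters lay between or near them, at 21010, 30650, 21110 and 16980 CPM in cluster 13 and 18510, 16640, 12970 and 10740 CPM in cluster 15.

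Macrophages supplied most of the class II transcripts of the sorted heart cells in 3 of the mice. They held 40.5%, 58.7%, 71.9% and 66.1% of the core UMIs of all heart barcodes. Dendritic cells held 30.8%, 17.0%, 8.59% and 8.61%, and B cells 19.6%, 15.8%, 6.47% and 14.4%. Dendritic cells were 9.93%, 4.65%, 1.51% and 2.43% of the heart barcodes, so the shares of class II transcripts and of cells moved together. Where a sum runs over all heart cells, fewer cells of a class and less RNA per cell cannot be told apart.

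The central question of the design was whether marrow from stroke donors gave rise to leukocytes with other transcript levels. The tests did not separate host from donor cells. A GFP transgene transcript was found in 12.9% to 22.8% of heart macrophages and 7.25% to 26.7% of heart B cells. In heart classical monocytes the share was 86.1% to 96.4%. The labels do not say which mice carried the transgene, and the part of host cells was not tested. In the heart, edgeR's quasi-likelihood test called 1 member in 1 class: H2-Oa, the alpha chain of DO, fell in dendritic cells of mice with stroke marrow by 1.84 ± 0.37 (SE) on the log2 scale (Benjamini-Hochberg adjusted p = 0.0350, 2 mice per group), from 168 and 128 CPM to 43.3 and 39.8 CPM. Of the 4903 genes tested in that class 0.326% were called. The call rested on 88, 59, 8 and 8 UMIs, and the adjusted p was 0.689 with DESeq2 and 0.0578 to 0.128 without either stroke mouse or without control replicate 1. It was 0.103 when class II genes took part in the clustering. Some other markers moved with the call. The 10 B cell markers summed to 458 and 609 CPM in the control dendritic cells and to 70.4 and 129 CPM in those with stroke marrow. Fscn1, a marker of migratory dendritic cells, was at 43.9 and 56.6 against 0 and 9.94 CPM. Xcr1, a marker of cross-presenting ones, was at 13.4 and 6.53 against 21.7 and 39.8 CPM. Clec9a was at 19.1 and 30.45 against 75.8 and 44.75 CPM, and Siglech at 3.82 and 2.175 against 5.41 and 24.9 CPM. Clec10a was at 173.8 and 195.8 against 113.6 and 129.3 CPM, and Cd209a at 427.8 and 589.5 against 427.5 and 377.9 CPM. Ccr7 and Itgae, other dendritic cell markers, overlapped between the groups, unlike those named before them. Ccr7 was at 170 and 65.25 against 92 and 89.5 CPM, and Itgae at 1.91 and 6.53 against 27.1 and 0 CPM. Without the barcodes holding Cd79a, Cd79b or Ms4a1 H2-Oa was at 173 and 137 against 43.3 and 28.1 CPM; the part of dendritic cell subsets was not tested.

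Other members in heart dendritic cells did not pass. H2-DMb2 gave a log2 fold change of -1.12 ± 0.32 (adjusted p = 0.251) and H2-DMb1 one of 0.66 ± 0.26 (adjusted p = 0.442). H2-DMb2 was at 200.5 and 159 against 103 and 64.6 CPM, and H2-DMb1 at 527 and 624 against 974 and 840 CPM, in opposite directions. Ciita gave -0.54 ± 0.31, H2-Aa -0.24, H2-Eb1 -0.23, H2-Ab1 -0.08, H2-Ob -0.04, H2-DMa 0.03 and Cd74 0.05. The median of all 10 was -0.16, against -0.01 over all genes tested. In the same class the interaction of organ and donor for H2-Oa, the test of whether this change differs from blood, was -2.05 ± 0.70 (adjusted p = 0.882).

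**Figure D4:**
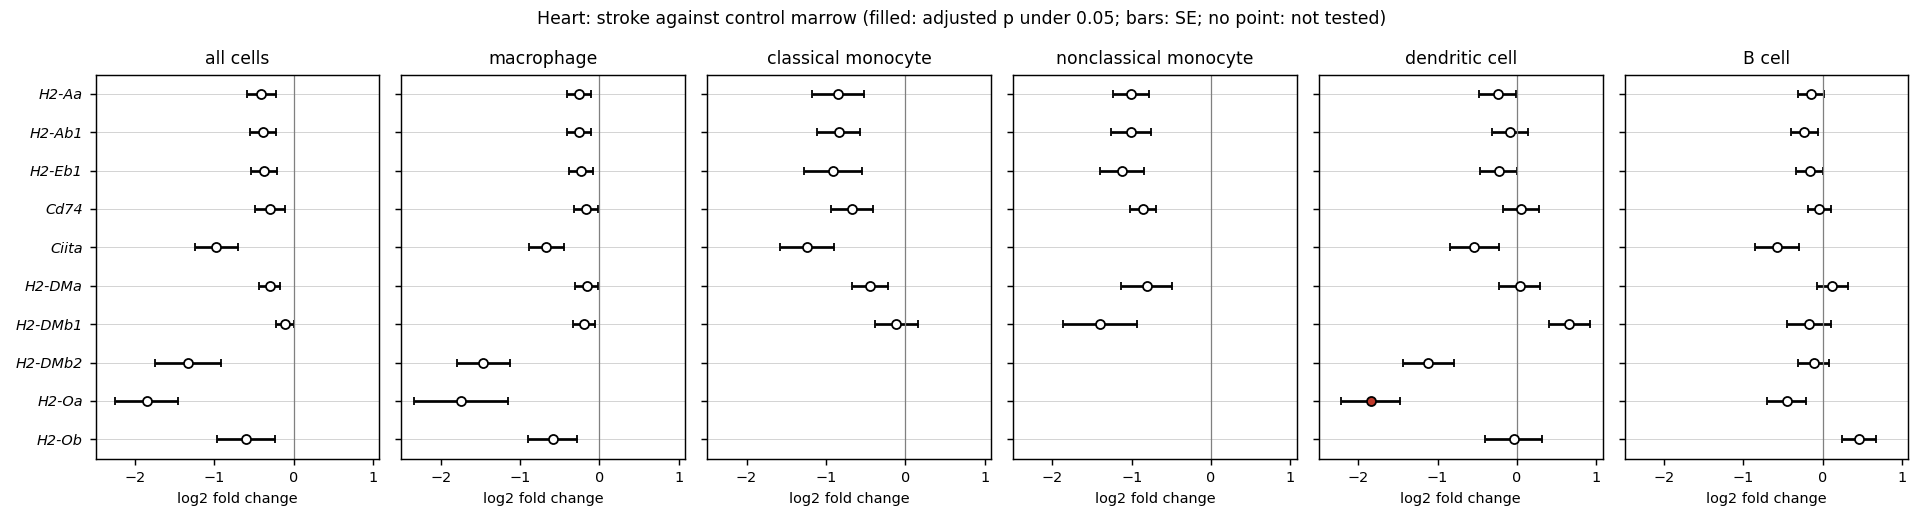
Log2 fold change of stroke against control marrow (x axis) for each gene (y axis) in all heart cells and in 5 heart classes, with bars of 1 SE and filled points where the adjusted p was under 0.05. Only H2-Oa in dendritic cells is filled, and all points of macrophages and both kinds of monocytes lie below 0.

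In heart macrophages 0 of 10 members were called, and 0% of 10666 genes were, with 436 genes at an unadjusted p under 0.05; DESeq2 called 2 genes, neither of them a member. All 10 members were lower with stroke marrow, with a median log2 fold change of -0.26 against -0.0013 over all genes. Leaving out stroke replicate 1 gave a median of -0.14 and leaving out stroke replicate 2 one of -0.41; 3 members were called lower when control replicate 2 was left out. The core genes lay between -0.26 ± 0.16 for H2-Aa and -0.17 ± 0.15 for Cd74. Ciita gave -0.67 ± 0.22 (adjusted p = 1.0), at 116 and 75.7 CPM in the control mice and 46.3 and 70.8 CPM in the stroke mice. H2-DMb2 gave -1.46 ± 0.33 (adjusted p = 0.513) and H2-Oa -1.74 ± 0.59 (adjusted p = 1.0). Dendritic cell transcripts moved with these values: the 16 dendritic cell markers summed to 570 and 402 CPM in the control macrophages (3 and 0 of them at 0) and to 236 and 262 CPM in the stroke macrophages (2 and 2 at 0), and their part was not tested. For the B cell markers, given above, the sums were 943 and 552 against 460 and 524 CPM.

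In heart classical monocytes 7 members passed the count filter, and 0 were called, beside 0.0175% of 5726 genes (265 at an unadjusted p under 0.05; DESeq2 called 1 gene and no member). H2-DMb2, H2-Oa and H2-Ob were too low to test. Ciita gave -1.24 ± 0.34, H2-Eb1 -0.92 ± 0.37, H2-Aa -0.85 ± 0.33, H2-Ab1 -0.84 ± 0.28, Cd74 -0.67 ± 0.26, H2-DMa -0.44 ± 0.22 and H2-DMb1 -0.11 ± 0.27, all at an adjusted p of 0.973 or more. The sizes rested on single mice: the median of the 7 was -1.36 without stroke replicate 1, where 5 members were called, -0.36 when stroke replicate 2 was dropped and -0.44 when control replicate 1 was, and in each of the last 2 fits 1 of the 7 was higher. Stroke replicate 2 was the lowest mouse for the core genes, and control replicate 1, the highest, had only 37 barcodes.

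Heart nonclassical monocytes came closest to a shared call. Of the 6 members tested, 0 passed the threshold, beside 0.0166% of 6041 genes (274 at an unadjusted p under 0.05; DESeq2 called 0 genes). Cd74 gave -0.86 ± 0.17 (adjusted p = 0.0556), from 947 and 1179 CPM to 618 and 555 CPM. H2-Eb1 gave -1.13 ± 0.28, H2-Aa -1.01 ± 0.23, H2-Ab1 -1.004 ± 0.25, H2-DMa -0.81 ± 0.32 and H2-DMb1 -1.40 ± 0.46, at adjusted p-values of 0.228 to 0.998. Cd74 crossed the threshold under 8 alternatives, at adjusted p-values from 9.07e-05 to 0.0438. Without 1 mouse the adjusted p was 0.0688 to 0.999. With organ assigned by hashtag ratio it gave -0.30 (adjusted p = 0.999).

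The remaining heart classes gave no call. In B cells 8 of 10 members were lower, with a median of -0.16, a lowest value of -0.57 ± 0.28 for Ciita and a highest of 0.46 ± 0.21 for H2-Ob; 0 were called, beside 0.0977% of 7166 genes (378 had an unadjusted p under 0.05; by DESeq2 it was 0 genes). In neutrophils 5 members were tested and 0 called (0% of 3568 genes, 124 at an unadjusted p under 0.05, DESeq2 0), with values from -0.64 ± 0.79 for H2-DMa to -1.89 ± 0.80 for H2-Ab1. The direction in neutrophils followed control replicate 2 and the doublet threshold, since the median of the 5 was 0.80 without control replicate 2 and 1.06 with automatic thresholds. No member passed the count filter in heart NK cells. Over all heart cells the 10 members had a median of -0.39, with H2-Oa at -1.85 ± 0.40, H2-DMb2 at -1.33 ± 0.42 and Ciita at -0.98 ± 0.27; 0 were called (adjusted p 0.593 to 0.831), beside 0.0239% of 12537 genes (1008 at an unadjusted p under 0.05), while DESeq2 called H2-Oa (adjusted p = 0.00852).

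Genes that work with class II were tested between donors as well. Of the 17 regulators and partners of Ciita, 12 genes of peptide loading and turnover, 8 costimulatory genes, 14 of MHC class I presentation and 13 of the interferon gamma response, 0 of those tested were called by edgeR in any heart or blood class, where 0% to 0.724% of all genes tested were called. Not every gene of a list passed the filter in each class: 1 to 12 of the 12 loading genes were tested, for example. Over all heart cells 12 of the 17 regulators were lower and 5 higher (median -0.11), all 7 costimulatory genes tested were lower (median -0.17), and 9 of 12 loading genes were higher (median 0.25).

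In blood edgeR called 0 members in any class. The background was 0% of genes in all blood cells, dendritic cells and NK cells, 0.0115% in classical monocytes, 0.0524% in nonclassical monocytes, 0.0209% in neutrophils and 0.724% in B cells, and 65 to 570 genes per class had an unadjusted p under 0.05. DESeq2 called no member in blood. In classical monocytes 6 of 7 members were lower (median -0.42), with H2-Eb1 at -0.59 ± 0.29 and Ciita at -0.42 ± 0.21. That direction rested on single mice: the median was 0.035 with 5 of 7 higher without stroke replicate 1, and -0.02 without control replicate 2. It was -0.78 with 4 members called lower without stroke replicate 2, and -1.31 with 4 called lower when the organ was taken from the hashtag ratio. In nonclassical monocytes 6 of 6 were lower (median -0.45), from -0.25 ± 0.29 for H2-DMa to -0.65 ± 0.25 for H2-Ab1, but 6 of 6 were higher at cluster resolution 2. Blood dendritic cells had 7 of 10 higher (median 0.10) and a Ciita of -0.57 ± 0.28. Without stroke replicate 2, 9 of the 10 were lower (median -0.48), without control replicate 1 8 were lower (median -0.08), and without stroke replicate 1 8 were higher (median 0.46) and 2 were called. Blood B cells had 8 of 10 lower (median -0.11). Over all blood cells H2-DMb2, H2-Ob and H2-Oa were higher, at 1.81 ± 1.14, 1.61 ± 1.04 and 1.08 ± 0.71, with the B cell share of stroke replicate 2 moving with them. Without that mouse all 10 members were lower there (median -0.75), and without stroke replicate 1 6 were called higher and 1 lower. For the interaction of organ and donor edgeR called 0 members in 6 classes and DESeq2 none; 0% of genes were called in both kinds of monocytes, dendritic cells and NK cells, 0.0855% in neutrophils and 0.131% in B cells, with 168 to 478 genes per class at an unadjusted p under 0.05. Cd74 in neutrophils came nearest, at -1.94 ± 0.43 (adjusted p = 0.102).

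Heart and blood of the same mouse were compared with the mouse as a block. The cells of the 2 organs were prepared from different tissues before they were pooled, so that organ and tissue handling cannot be told apart. In classical monocytes the class II genes rose in heart: H2-Eb1 by 2.47 ± 0.19, H2-Ab1 by 2.04 ± 0.17, H2-Aa by 2.01 ± 0.17 and Cd74 by 1.79 ± 0.15 on the log2 scale (edgeR adjusted p between 2.4e-13 and 8.3e-12). H2-Aa, for example, stood at 2068, 1206, 1266 and 595 CPM in heart and 317, 490, 202 and 421 CPM in blood, higher in heart in 4 of 4 mice. In all, 5 of the 7 members tested were called higher, where 12.6% of 6736 genes were called higher, 5.21% lower and 17.8% in either direction. The fifth was H2-DMb1, at 0.53 ± 0.15 (adjusted p = 0.0103), a call lost with DESeq2 (adjusted p = 0.139) and without control replicate 1 (0.101) or stroke replicate 1 (0.167). Ciita gave 0.53 ± 0.21 (adjusted p = 0.0781) and H2-DMa 0.32 ± 0.12 (adjusted p = 0.0563).

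Cluster and marker values bear on that comparison. Of the blood classical monocytes 95.8% lay in cluster 2, and of those in heart 91.5% lay in cluster 11. Macrophage markers summed to 276, 715, 486 and 326 CPM in the heart monocytes and to 192, 227, 211 and 182 CPM in the blood monocytes, against 16510 to 22750 CPM in the macrophages. They were thus higher in heart in 4 of 4 mice, and their part in the result was not tested. When barcodes with 3 or more UMIs of C1qa, C1qb and C1qc, or of Cd79a, Cd79b and Ms4a1, were left out, H2-Eb1 differed by 2.35.

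Neutrophils differed between organs from low levels. All 5 members tested rose in heart, where 16.5% of 4678 genes were called higher, 8.59% lower and 25.1% either way: H2-Aa by 3.47 ± 0.32, H2-Eb1 by 3.38 ± 0.32, Cd74 by 3.27 ± 0.32, H2-Ab1 by 3.17 ± 0.42 and H2-DMa by 2.06 ± 0.58. H2-DMa was not called with DESeq2 (adjusted p = 0.0774), or by edgeR without control replicate 2 (0.235), without stroke replicate 1 (0.0945) or without stroke replicate 2 (0.0811). Of the blood neutrophils 99.8% lay in cluster 1, and of those in heart 98.5% lay in cluster 9. A few barcodes carried much of the H2-Aa. Only 8.48% to 10.3% of heart neutrophils held a UMI of H2-Aa before thinning, and a single barcode per mouse held 60%, 28.1%, 42.3% and 59.7% of those UMIs. In heart neutrophils macrophage markers summed to 445, 275, 283 and 248 CPM, and 1 or 2 of the 10 were at 0; their part in the result was not tested. Leaving out barcodes with 3 or more UMIs of those lineage genes left H2-Aa at 3.03.

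Dendritic cells, taken from 1 cluster in both organs, were higher in heart for all 10 members, with a median of 0.66 against -0.02 over all genes. At resolution 2 that cluster split largely by organ. Cluster 17 there held 175 heart and 53 blood barcodes, and cluster 18 held 13 heart and 192 blood barcodes. The part of this split in the organ difference was not tested. Macrophage markers summed to 435.5, 1488, 1634 and 1372 CPM in heart dendritic cells and to 367, 178.5, 200.7 and 1162 CPM in blood ones. Their part was not tested either. Leaving out barcodes with 3 or more UMIs of macrophage or B cell lineage genes took 5 of the 23 heart barcodes of stroke replicate 1. Too few then remained for a fit. Of the 10 members, 3 were called, where 5.56% of 6710 genes were called higher, 1.06% lower and 6.62% either way. H2-Eb1 rose by 1.03 ± 0.23 (adjusted p = 0.0126), Cd74 by 0.70 ± 0.17 (adjusted p = 0.0228) and H2-Ob by 0.97 ± 0.27 (adjusted p = 0.0469). None of the 3 calls held without stroke replicate 1, where the adjusted p of H2-Eb1, Cd74 and H2-Ob was 0.189, 0.257 and 0.166, or without control replicate 1 (0.109, 0.141 and 0.309). H2-Ob was not called without control replicate 2 either (0.167). DESeq2 called 1 of the 10 members. With organ assigned by hashtag ratio 8 were higher and 2 lower in heart (median 0.38), and 1 was called. Ciita was level between the organs, at 0.01 ± 0.19.

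B cells, in the same 2 clusters in both organs, gave 0 calls among 10 members, where 5.38% of 7661 genes were called higher, 3.68% lower and 9.06% either way; DESeq2 called none of the members there, and 1759 genes had an unadjusted p under 0.05. H2-Eb1 came nearest at 0.31 ± 0.10 (adjusted p = 0.0505). H2-Ob and Ciita were the only 2 lower in heart, both at -0.36. In NK cells 2 members were tested, and Cd74 was called at 1.62 ± 0.47 (adjusted p = 0.0322, 4.66% of 4419 genes called higher, 1.24% lower and 5.91% either way). The value was 0.016 without stroke replicate 1, and the adjusted p was 0.130 without control replicate 2. DESeq2 did not call Cd74 (adjusted p = 1.0), nor did edgeR when barcodes with 3 or more UMIs of macrophage or B cell lineage genes were left out (1.03, adjusted p = 0.248). The B cell markers of the heart NK sum of stroke replicate 1, given above, moved with the call, and their part was not tested.

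Nonclassical monocytes went the other way, but not stably. Of 6 members tested 5 were called lower in heart, where 5.94% of 6128 genes were called lower, 10.2% higher and 16.2% either way: H2-Aa at -0.89 ± 0.13, H2-Ab1 at -0.83 ± 0.13, H2-Eb1 at -0.83 ± 0.16, H2-DMa at -0.79 ± 0.20 and Cd74 at -0.34 ± 0.08. Of the blood cells 99.4% lay in cluster 5, and of those in heart 77.4% in cluster 8 and 22.6% in cluster 5. With clusters at resolution 2 the values of H2-Aa, H2-Ab1, H2-Eb1 and Cd74 were 0.25, 0.28, 0.13 and 0.25, and with hashtag ratios as the organ call they were 1.24, 1.202, 1.08 and 0.70. A small number of barcodes moved between the settings. At resolution 2, 33 of the 502 blood barcodes left the class, and their core sum was 9011 CPM. With the hashtag ratio, 56 blood barcodes at 5917 CPM left it and 71 heart barcodes at 4464 CPM joined. The direction between the organs was therefore not determined in this class.

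**Figure D5:**
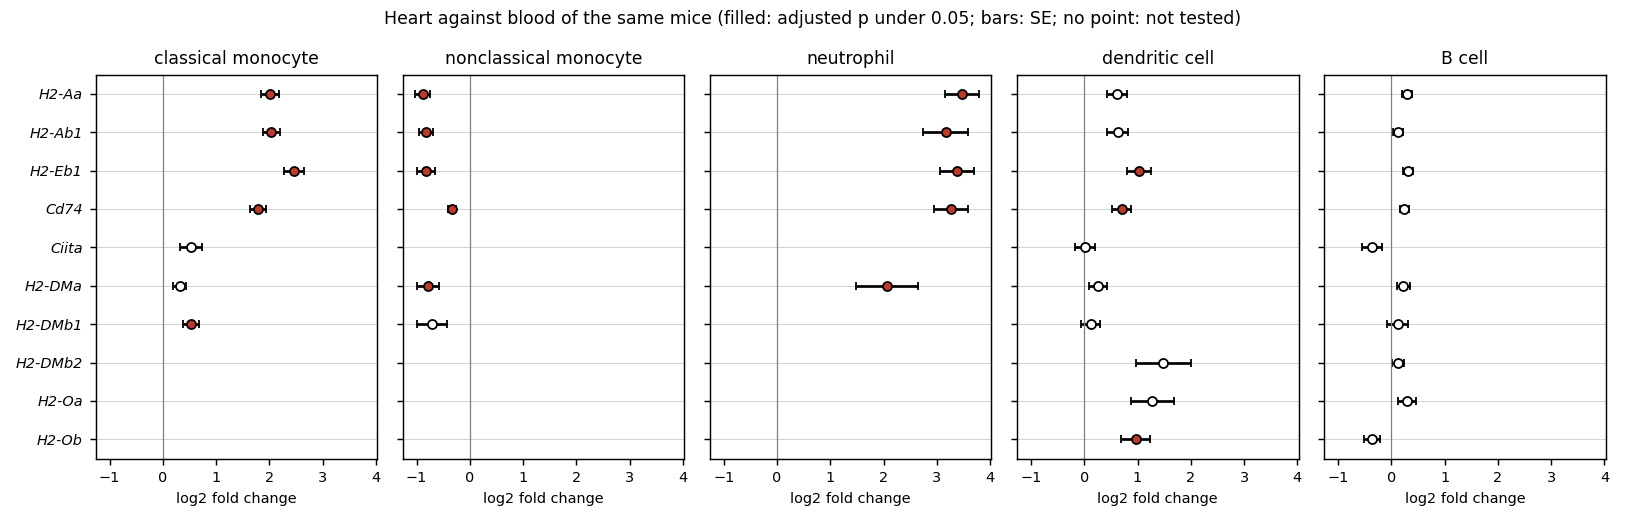
Log2 fold change of heart against blood of the same mice (x axis) for each gene (y axis) in 5 classes, with bars of 1 SE and filled points where the adjusted p was under 0.05. The core genes lie between 1.79 and 2.47 in classical monocytes and above 3 in neutrophils, near 0 in B cells and below 0 in nonclassical monocytes, where the sign turned under 2 alternatives.

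Partner genes of class II also differed between the organs. Costimulatory genes, which give T cells the signal beside the peptide, rose in heart classical monocytes in 5 of 5 tested (of 8 listed): Cd86 by 3.09 ± 0.14, Tnfsf9 by 4.22 ± 0.42, Cd80 by 2.50 ± 0.25, Cd274, which encodes the inhibitory PD-L1, by 2.44 ± 0.40, and Cd40 by 0.84 ± 0.25. The same 5 genes rose in heart dendritic cells, of 6 tested, with Cd86 at 3.14 ± 0.30. In B cells 3 of 6 rose, led by Cd86 at 2.95 ± 0.14, although no class II gene was called there. In nonclassical monocytes 3 of 4 rose and in neutrophils 2 of 3. Over all genes tested, 12.6% were called higher in heart in classical monocytes, 5.56% in dendritic cells and 5.38% in B cells. The share was 10.2% in nonclassical monocytes and 16.5% in neutrophils.

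Among the loading and turnover genes, Cd83 rose in heart in 5 classes: by 5.75 ± 0.22 in classical monocytes, 4.66 ± 0.25 in dendritic cells, 3.75 ± 0.12 in nonclassical monocytes, 3.51 ± 0.54 in neutrophils and 2.95 ± 0.15 in B cells. Cd83 protects surface class II from the ubiquitin ligase encoded by Marchf1. Marchf1 fell in heart, by 0.88 on the log2 scale in B cells, by 0.55 in classical monocytes and by 0.39 in nonclassical monocytes. Of the 11 genes tested in classical monocytes 4 rose and 1 fell, and the proteases Lgmn (1.19 ± 0.16), Ctsl (0.94 ± 0.19) and Ctsb (0.40 ± 0.08) were among those that rose. In neutrophils 5 of 8 rose, among them Ctss by 2.18 ± 0.18 and Ifi30, a lysosomal thiol reductase, by 2.61 ± 0.41. Over all genes 16.5% were called higher in neutrophils, and in classical monocytes 12.6% were called higher and 5.21% lower.

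Among the regulators Irf1, which can act on a promoter of Ciita, rose in heart by 1.36 ± 0.12 in classical monocytes, 1.69 ± 0.37 in dendritic cells and 1.10 ± 0.13 in nonclassical monocytes. In classical monocytes Bcl6 rose by 0.99 ± 0.16 and Prdm1 by 2.28 ± 0.40. In B cells Prdm1, a repressor of Ciita, rose by 1.54 ± 0.41 and Irf8 by 0.71 ± 0.19. Of the interferon gamma list 3 of 10 rose in classical monocytes, led by Cxcl10 at 2.11 ± 0.19, and 2 of 10 in dendritic cells, Cxcl10 at 6.70 ± 0.64 and Cxcl9 at 6.39 ± 1.08. Among the 14 class I genes 5 rose in classical monocytes, by at most 0.48 ± 0.17 (Tap1), and the lowest difference of a core class II gene there was 1.79 ± 0.15 (Cd74). Beside these counts, 12.6% of all genes were called higher in classical monocytes and 5.56% in dendritic cells.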

How the data were processed

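Heart and blood CD45+CD11b+ cells of 4 mice were measured by 10x 3′ single-cell sequencing with organ hashtags. The authors deposited raw UMI counts of genes and hashtags for each barcode, made with Cell Ranger 7.1.0 on mm10 per the submitters' processing notes. Barcode suffixes 1 to 4 were matched to the sample numbers of the labels, which no file states and on which every donor comparison rests. Organ was called with HTODemux (Seurat 5.3.0, quantile 0.99), which marked 954 barcodes as doublets and 101 as negative. Barcodes needed 200 genes, at most 10% mitochondrial UMIs and a Scrublet score (scanpy 1.11.5) of at most 0.25. The members and 2 transgene transcripts were kept out of Leiden clustering (2000 variable genes, 30 components, resolution 1), and clusters were named where markers of a class had a mean z of 1 or more. An alternative resolution was 2.

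For each class and organ, the UMI counts of a mouse were summed if every mouse had 20 barcodes or more. CPM was computed from these sums over all genes. The sums went into the quasi-likelihood test of edgeR 4.0.16 (filterByExpr, TMM factors, Benjamini-Hochberg threshold 0.05 over all genes tested), without a covariate between donors and with the mouse as a block between organs. DESeq2 1.42.0 was an alternative. The scripts were tested on simulated data. All 10 members entered every comparison in which they passed the count filter, but the text does not name each of them every time. In blood, for the interaction and between the organs in B cells, for example, only some members are named beside the counts. From each other list, the genes past the threshold were eligible, at most 5 by smallest p, as were the 5 genes most like the mean of the core genes. The members and lists were chosen with earlier results of these data known. The p-values between donors and for the interaction rest on 2 animals per group. Those between organs rest on differences within 4 mice. The result of 1 gene of the regulator list is not reported here.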

Additional observations from a re-analysis of the deposited data

How the results depend on the processing

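Calls between donor groups depended on the fit. Counts of calls were taken over the heart classes and all heart cells together. They were 1 as reported and 1 with DESeq2, 2 each with RLE factors, clustering at resolution 2 and organ by hashtag ratio, 6 with automatic doublet thresholds and 16 without the filter on low counts. These counts pool both directions. With automatic thresholds 4 of the 6 were higher with stroke marrow, all in NK cells. Without the filter 1 was higher, also in NK cells. Leaving out 1 mouse gave 0 to 8. In blood the count was 0 as reported, 1 without the filter, 4 by hashtag ratio and 0 to 10 without 1 mouse, the 10 without stroke replicate 1. For the interaction it was 0, then 1 without the filter and 0 to 6 without 1 mouse. Between organs it was 19, against 12 with DESeq2 and 12 to 27 without 1 mouse. Over all genes, donor calls in heart numbered 28, against 896 without the filter and 103 to 904 without 1 mouse, and organ calls 4764, against 2408 with DESeq2 and 7094 at resolution 2. The cause was not tested.

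Replicate numbers were not used as pairs in the reported fits. Deviations of same-numbered mice correlated at -0.32 to 0.12 over the heart and blood sums. Each value compares a single control difference with a single stroke difference, so it cannot decide whether the mice were paired. With the replicate block, 7 members were called in heart and 0 in blood. A crossed pairing, chosen after seeing the data, gave 10 and 0. Without the block of the mouse, organ calls numbered 13.

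The nonclassical difference between organs reversed at resolution 2 for H2-Aa (0.25), H2-Ab1 (0.28), H2-Eb1 (0.13) and Cd74 (0.25), and by hashtag ratio for H2-Aa (1.24), H2-Ab1 (1.202), H2-Eb1 (1.08), Cd74 (0.70), H2-DMa (0.030) and H2-DMb1 (0.70), through the barcodes described above. Mean core sums moved by hashtag ratio to 35060 CPM in heart dendritic cells, 948 in blood classical, 1581 in heart nonclassical and 1110 in blood nonclassical monocytes, and to 26080 in macrophages without the 3 resident genes (32640 with unthinned barcodes). At resolution 2 they moved to 1139 CPM in blood nonclassical monocytes and 5974 in heart neutrophils, with automatic doublet thresholds to 1769 in heart NK cells, and to 1839 in heart nonclassical monocytes of a single cluster. Of the other values 469 kept direction and side of the threshold, 37 passed it, 24 no longer did and 13 moved. Depth limits H2-Oa, H2-Ob and H2-DMb2 outside B and dendritic cells, where most sums held a few UMIs or none.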

Other observations

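Some heart macrophages held transcripts of a GFP transgene. The labels do not say which mice carried it, and the split by GFP was added after seeing the data. GFP was counted at full depth, whereas Lyve1, Timd4 and Folr2 were counted after thinning to 2000 UMIs. Of the heart macrophages with at least 2000 UMIs, 23.4%, 17.0%, 18.3% and 14.4% had a GFP transcript. Their core sum was 22350, 21390, 18370 and 18210 CPM, against 17400, 18760, 14270 and 17900 CPM in those without. The means of the 2 subsets differed by less than those of the split by Lyve1, Timd4 or Folr2. Among macrophages that held 1 of these 3 genes, the core sum was 8074, 12980, 9538 and 12240 CPM with GFP and 8929, 13160, 9186 and 10840 CPM without it. Over all heart macrophages with at least 2000 UMIs, whether or not they held these 3 genes, Ciita differed by GFP. It stood at 203, 93.1, 75.1 and 91.5 CPM with GFP and 60.3, 67.4, 38.7 and 67.0 CPM without it, higher with GFP in 4 of 4 mice.

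The make-up of the core sum also varied. Cd74 gave 55.4% to 59.4% of the core UMIs of heart B cells and 48.4% to 52.3% of those of blood dendritic cells. Per 1000 core UMIs, blood classical monocytes held 81.3 to 167 UMIs of H2-DMa, against 17.5 to 21.8 in heart B cells.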
